A study of Mus musculus with 19 samples.

Results

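The genes described here encode the classical axon guidance ligands and their receptors: class 3 to 7 semaphorins, plexins, neuropilins, Slit proteins, Robo receptors, ephrins, Eph receptors, netrins and Unc5 receptors. They were taken by symbol, without use of any measured value, and 68 of the 23521 genes with a value in every library matched. RNA was measured in 19 libraries of hindlimb muscle from C57BL/6J mice. All mice were injected with 2.5 mg tamoxifen a day for 5 days at 8 weeks of age and rested for 10 days, so no group is untreated, and the labels used here name no allele or transgene. The 5 groups are the unsorted sample (Whole, n = 4), lineage-positive cells (LinPos, n = 4), lineage-negative cells (LinNeg, n = 4), and the Sca1-positive (LinNegSca1Pos, n = 3) and Sca1-negative (LinNegSca1Neg, n = 4) fractions of lineage-negative cells. The labels do not say which lineage antigens were used or whether replicates came from separate mice, so each p-value reflects library-to-library spread alone, which may be technical.

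Guidance cues were named for steering growing axons, but most act outside the nervous system as well. Secreted class 3 semaphorins bind neuropilins that signal through plexins, Slit proteins bind Robo receptors, netrins bind Dcc, neogenin and Unc5 receptors, and membrane-bound ephrins and Eph receptors signal in both directions between touching cells. In vessels these pathways shape branching and the arterial and venous identity of endothelium, and in muscle they have been studied in nerve contact and in satellite cells.

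The promoters below belong to the genes with the highest level among those highest in LinPos (Nrp1, a semaphorin and VEGF co-receptor), in LinNegSca1Pos (Sema3c, a secreted semaphorin) and in LinNegSca1Neg (Sema5a, a transmembrane semaphorin), taking only genes with a single RefSeq promoter window. The windows run from 250 bases before to 50 bases after the start in GRCm38.p6 and all lie on the plus strand, at chr8:128358823-128359122 for Nrp1, chr5:17574566-17574865 for Sema3c and chr15:32244563-32244862 for Sema5a. Capitals mark AGGAAG (the core of ETS factor sites) or ACAAAG (SOX factors) on either strand; CAGCTG (an E-box), also searched on both strands, is in none of them.
Nrp1: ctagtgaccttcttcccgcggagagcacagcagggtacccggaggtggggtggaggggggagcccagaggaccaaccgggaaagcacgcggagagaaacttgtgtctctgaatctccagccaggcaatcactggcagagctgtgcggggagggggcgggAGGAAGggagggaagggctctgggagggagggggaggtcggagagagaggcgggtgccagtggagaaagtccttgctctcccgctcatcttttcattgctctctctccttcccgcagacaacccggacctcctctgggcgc
Sema3c: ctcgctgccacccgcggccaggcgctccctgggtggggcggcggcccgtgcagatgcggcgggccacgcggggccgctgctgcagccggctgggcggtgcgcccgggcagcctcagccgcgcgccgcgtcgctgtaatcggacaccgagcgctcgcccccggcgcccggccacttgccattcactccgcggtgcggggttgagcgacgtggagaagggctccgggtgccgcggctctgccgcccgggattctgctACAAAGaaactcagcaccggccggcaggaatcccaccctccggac
Sema5a: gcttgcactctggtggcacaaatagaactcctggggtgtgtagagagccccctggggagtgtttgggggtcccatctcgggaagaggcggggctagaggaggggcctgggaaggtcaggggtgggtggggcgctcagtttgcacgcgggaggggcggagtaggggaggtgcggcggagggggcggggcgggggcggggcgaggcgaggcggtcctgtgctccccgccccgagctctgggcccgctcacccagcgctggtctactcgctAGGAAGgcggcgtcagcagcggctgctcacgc
The Sema3c window holds 42 CpG and is 75.7% G and C, the Sema5a window holds 23 CpG, and the Nrp1 window 14. RefSeq windows were matched for 59 of the 68 symbols, 75 windows in all, with a median of 19 CpG against 7 in all 32851 mouse windows. AGGAAG was in 37.3% of the 75 windows and in 35.4% of all windows; taking only the first window of each symbol gave 42.4%. AGGAAG was in 39.1% of the 23 windows of genes highest in LinPos, in 18.2% of the 11 of genes highest in LinNegSca1Pos and in 50% of the 10 of genes highest in LinNegSca1Neg. ACAAAG was in 13.3% of the 75 windows and in 18.7% of all, and in 0 of the 23, 36.4% of the 11 and 30% of the 10 in the same order. CAGCTG was in 16.0% of the 75 windows against 16.3% of all. The motifs were chosen after levels of these genes had been seen, and a match is a run of letters, not a shown site.

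Levels are FPKM, fragment numbers scaled to transcript length and to the library's mapped fragments. A gene was tested when it reached 1 FPKM in at least 3 libraries, which 55 of the 68 genes did. The other 13 (Epha5, Epha6, Epha8, Epha10, Robo3, Slit1, Slit2, Efna3, Ntn3, Unc5c, Unc5d, Sema4f and Sema5b) reached at most 1.03 FPKM in any single library, that highest value being Slit2. Differences are log2 differences of log2(FPKM + 1), which understate the change of low genes, from limma over all 14043 tested genes and 19 libraries. A gene is called higher or lower at a Benjamini-Hochberg adjusted p under 0.05.

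The libraries detected 10737 to 12517 genes at 1 FPKM; the file holds no read counts, so depth is unknown. Marker genes mostly fitted the sort. Summed over 6 endothelial markers, LinPos held 541 to 1500 FPKM and LinNeg 53.5 to 74.9. Tek, 1 of the 6, did not separate them. It averaged 70.3 ± 30.5 FPKM in LinPos, 48.6 ± 9.49 in LinNeg (SD, n = 4) and 43.7 ± 7.50 in LinNegSca1Pos (n = 3). LinPos and LinNeg overlapped for Tek, and the other endothelial markers averaged at most 6.05 in LinNeg. Ly6a, which encodes Sca1, was at 1470 to 1978 in LinNegSca1Pos and 35.8 to 65.3 in LinNegSca1Neg. LinPos also held leukocyte markers (490 to 649 over 6 genes). LinNegSca1Neg was a mixture, with Schwann cell markers at 1564 to 2613, pericyte and smooth muscle markers at 1682 to 2520, tenocyte markers at 2235 to 3699 and satellite cell markers at 479 to 729. Neuron markers were near 0 everywhere, at most 10.9 over 10 genes (in LinNegSca1Pos, where Tubb3 averaged 4.04 ± 2.78, SD, n = 3), and Chat was listed at 0.001. Whole is titled a mononuclear suspension, but myofibre markers summed to 62015 to 78324 FPKM in it, against at most 19528 in any other library. In such bulk samples, fewer cells of a type and less RNA per cell cannot be told apart.

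Most of the 55 tested genes separated the fractions. Between LinPos and LinNeg, 23 were higher in LinPos, 27 lower and 5 not called, while 51.1% of all 14043 genes were called (25.3% higher, 25.8% lower). The libraries of both groups did not overlap for 45 of the 55, against 44.3% of all genes. The median absolute log2 difference was 1.55 for the 55 genes and 0.51 for all genes. Between LinNegSca1Pos and LinNegSca1Neg, 16 were higher, 22 lower and 17 not called (54.5% of all genes called, 22.4% higher and 32.1% lower). The groups did not overlap for 35 (54.7% of all genes), with a median absolute log2 difference of 0.90 against 0.62. LinNegSca1Pos was above LinPos for 22 genes and below for 23 (59.9% of all genes called, 29.0% higher and 30.9% lower), with no overlap for 38 (58.1%). LinNegSca1Neg was above LinPos for 25 and below for 19 (54.5%, 31.5% higher and 23.0% lower), with no overlap for 40 (46.6%). These comparisons share libraries and are set side by side only. The median log2 difference of all genes was -0.16 between the Sca1 fractions and 0.13 between LinNegSca1Neg and LinPos. In the same order it was -0.05 and 0.09 with quantile scaling and -0.07 and -0.02 with median-of-ratios scaling.

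**Figure D1:**
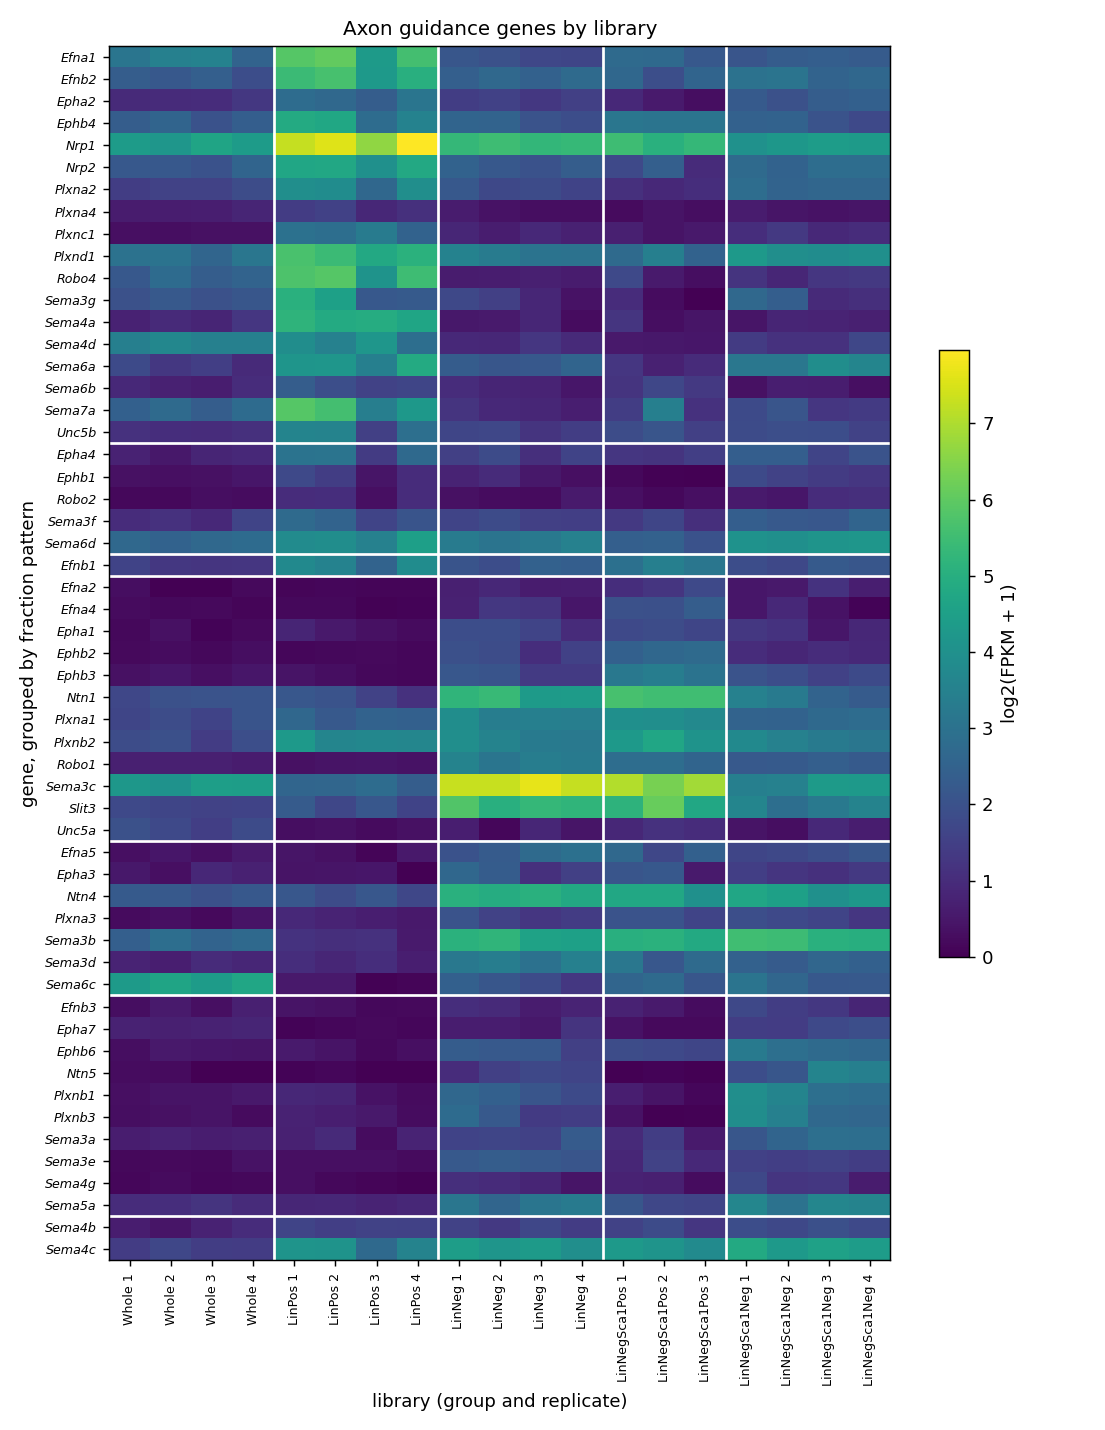
Colour gives log2(FPKM + 1) of the 55 tested genes (rows) in the 19 libraries (columns); white lines part the 5 groups and the fraction patterns, which run from highest in LinPos at the top to highest in LinNegSca1Neg and not set apart at the bottom. Nrp1 in LinPos and Sema3c in LinNeg are the brightest rows, and LinPos replicate 3 is darker than the other LinPos libraries for most genes of the top block.

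Each gene was placed by its calls among the 3 fractions that share no gate. Of the 55, 18 were highest in LinPos (17.3% of all genes were), 12 in LinNegSca1Pos (16.2%) and 10 in LinNegSca1Neg (16.1%). A further 7 were higher in both Sca1 fractions than in LinPos (7.48%), 5 were lowest in LinNegSca1Pos (8.68%), 1 was lowest in LinNegSca1Neg (3.19%) and 2 were not set apart (31.1%).

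The secreted class 3 semaphorins were mostly on the lineage-negative side. Sema3c, which acts through neuropilins and PlexinD1 in vessel and heart development, was the highest ligand of all. Its level was 156, 158, 202 and 154 FPKM in LinNeg, 133, 80.3 and 116 in LinNegSca1Pos, 9.87, 10.4, 19.1 and 18.9 in LinNegSca1Neg, 5.11, 5.17, 5.99 and 4.13 in LinPos, and 17.5, 15.6, 21.0 and 20.8 in Whole. LinNeg and LinNegSca1Pos libraries all lay above every other library. The difference was 2.86 ± 0.23 (log2, SE) between LinNegSca1Pos and LinNegSca1Neg (limma adjusted p = 1.09e-08).

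Sema3b, a secreted semaphorin first studied as a tumour suppressor, was high in both Sca1 fractions. It stood at 31.8, 33.4 and 27.7 FPKM in LinNegSca1Pos, at 45.1, 42.7, 32.4 and 30.8 in LinNegSca1Neg, at 33.3, 36.1, 23.3 and 22.0 in LinNeg and at 1.22, 1.12, 1.20 and 0.506 in LinPos. The Sca1 fractions overlapped and were not called apart (log2 difference -0.26 ± 0.20, adjusted p = 0.283), while each was far above LinPos. Sema3d was likewise higher in both Sca1 fractions than in LinPos, at lower levels: 7.87, 3.51 and 5.82 FPKM in LinNegSca1Pos, 4.62, 3.91, 5.13 and 4.50 in LinNegSca1Neg and 1.04, 0.792, 1.05 and 0.585 in LinPos. Sema3a and Sema3e, a neuropilin-1 ligand and a direct PlexinD1 ligand, were by their calls highest in LinNegSca1Neg of the 3 fractions, reaching 6.53 and 1.95 FPKM there. For Sema3e the Sca1 fractions overlapped, and the highest LinNegSca1Pos library lay above every LinNegSca1Neg library.

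Sema3f and Sema3g did not lie on that side. Sema3f, a neuropilin-2 ligand, stood at 5.82, 4.77, 2.11 and 3.20 FPKM in LinPos, 4.20, 3.67, 3.51 and 4.92 in LinNegSca1Neg, 1.48, 2.14 and 1.08 in LinNegSca1Pos and 2.10, 2.56, 1.85 and 1.77 in LinNeg. It was lowest in LinNegSca1Pos of the 3 fractions, and LinPos and LinNeg overlapped. Its call between them (0.64 ± 0.22, adjusted p = 0.0202) was lost without LinPos replicate 1 or 2 or LinNeg replicate 4 (adjusted p from 0.0509 to 0.085).

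Sema3g, a semaphorin of arterial endothelium, was highest in LinPos, but its libraries disagreed. Its level was 32.5, 22.0, 3.61 and 3.78 FPKM in LinPos, 5.41, 4.16, 0.931 and 1.09 in LinNegSca1Neg, 1.02, 0.204 and 0.001 in LinNegSca1Pos and 2.34, 1.86, 0.815 and 0.319 in LinNeg. Replicates 1 and 2 were above replicates 3 and 4 in each of the 3 groups with 4 sorted libraries. The same split held in all 3 groups for Epha1, Ephb1, Ephb3, Ephb4, Ephb6, Efnb3, Ntn1, Sema6c, Sema7a, Plxna3, Plxnb1 and Plxnb3. No tested guidance gene showed the reverse split in all 3. How many of all genes split in either direction was not counted, so these lists have no background share. They cannot tell a trait of the guidance genes from a shift of whole libraries. What sets replicates 1 and 2 apart from replicates 3 and 4 was not tested. The call of LinNegSca1Neg below LinPos (log2 difference -1.75 ± 0.56, adjusted p = 0.0127) was lost without LinPos replicate 1 (-1.23, adjusted p = 0.0586) or replicate 2 (-1.41, adjusted p = 0.0509).

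Both neuropilins and Plxnd1 were highest in LinPos. Nrp1, the co-receptor shared by class 3 semaphorins and VEGF-A, stood at 155, 190, 98.5 and 250 FPKM in LinPos, 43.9, 32.4 and 38.7 in LinNegSca1Pos and 15.5, 17.6, 20.2 and 19.3 in LinNegSca1Neg. No LinPos library overlapped a library of another group, and Nrp1 differed by 2.02 ± 0.21 between LinPos and LinNeg (adjusted p = 1.35e-07). Nrp2, the neuropilin of veins and lymphatics, stood at 25.1, 26.4, 14.9 and 27.1 FPKM in LinPos, 2.39, 4.31 and 0.960 in LinNegSca1Pos and 5.74, 4.71, 6.27 and 6.16 in LinNegSca1Neg. Plxnd1, the endothelial plexin, stood at 49.97, 41.9, 27.0 and 33.0 FPKM in LinPos, 5.76, 9.90 and 4.69 in LinNegSca1Pos and 18.2, 14.2, 13.7 and 14.5 in LinNegSca1Neg. Both were higher in LinPos than in LinNeg, by 2.31 ± 0.25 for Nrp2 and 2.02 ± 0.21 for Plxnd1 (adjusted p = 2.26e-07 and 2.00e-07). Sema3c was lowest in the fraction where Nrp1, Nrp2 and Plxnd1 were highest. Between the Sca1 fractions Nrp1, like Sema3c, was higher in LinNegSca1Pos (1.03 ± 0.22, adjusted p = 0.000813).

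**Figure D2:**
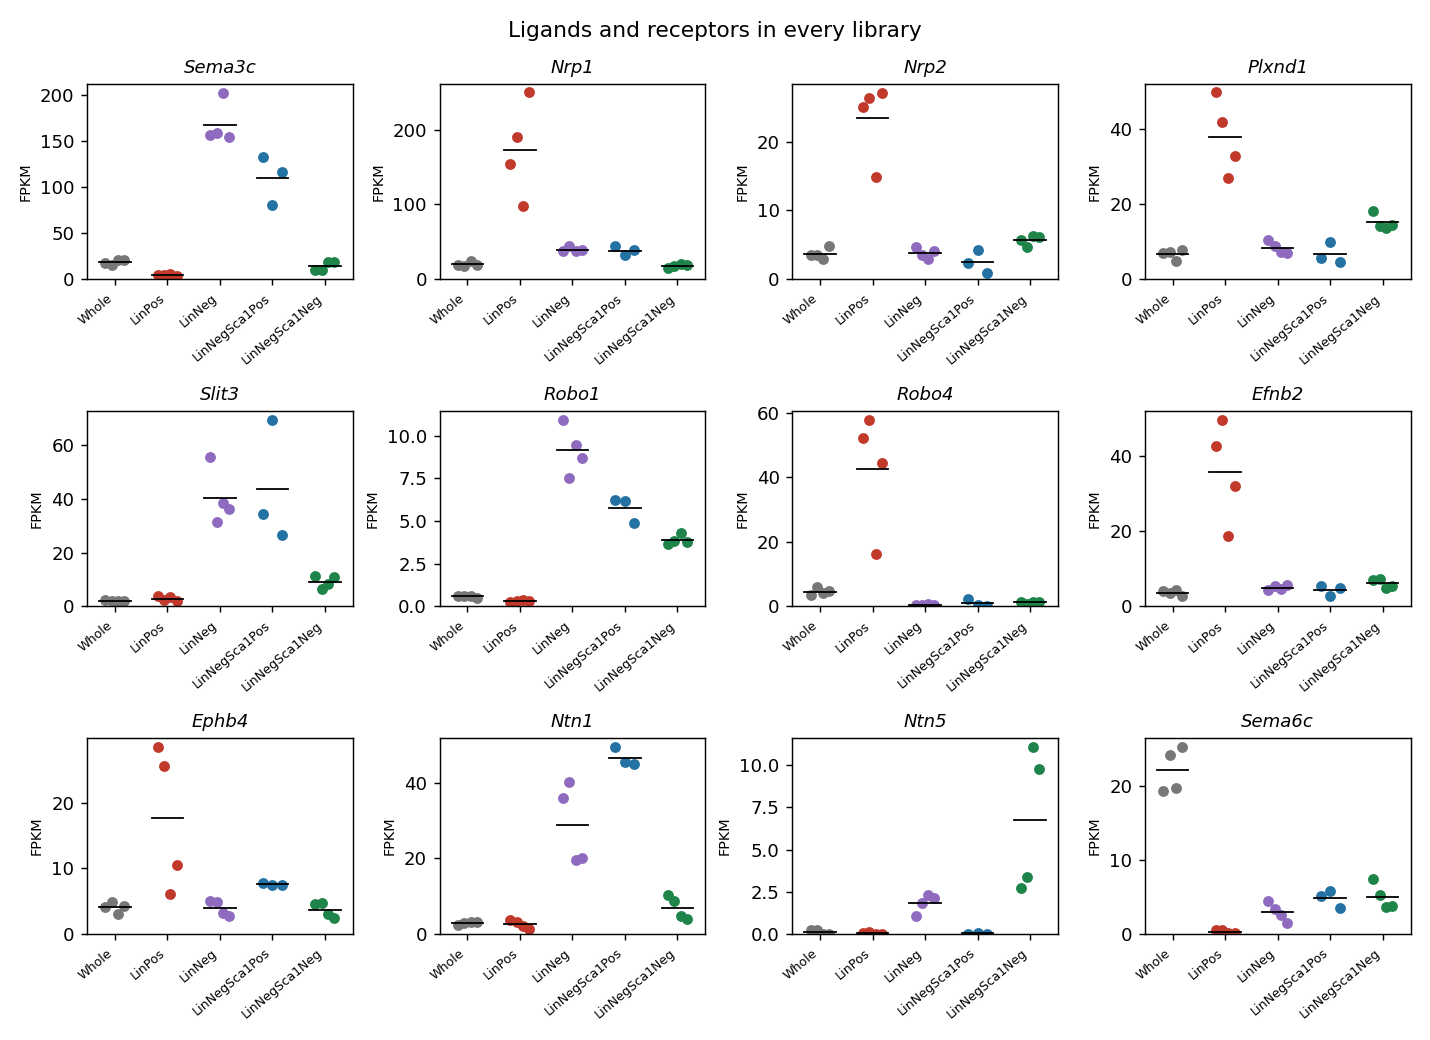
Each panel gives 1 gene in FPKM (linear axis from 0, own scale) by group; points are libraries and black lines group means (n = 4, LinNegSca1Pos n = 3). Sema3c, Slit3 and Ntn1 are high in LinNeg and LinNegSca1Pos, Nrp1, Nrp2, Plxnd1, Robo4, Efnb2 and Ephb4 are high in LinPos, Ntn5 in LinNegSca1Neg and Sema6c in Whole.

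The other plexins divided by fraction. Plxna2, Plxna4 and Plxnc1 were highest in LinPos, Plxna1 and Plxnb2 in LinNegSca1Pos, and Plxnb1 and Plxnb3 in LinNegSca1Neg, while Plxna3 was higher in both Sca1 fractions than in LinPos. The class A plexins, which signal for class 3 semaphorins bound to neuropilins, were thus on both sides. Plxna1 ranged from 12.5 to 14.6 FPKM in LinNegSca1Pos, from 4.67 to 6.04 in LinNegSca1Neg and from 3.67 to 5.31 in LinPos. Plxna3 ranged from 2.14 to 3.11, from 1.39 to 2.75 and from 0.454 to 0.880 FPKM in the same order. Both were lower in LinPos than in LinNeg, with log2 differences of -1.08 ± 0.15 for Plxna1 and -0.83 ± 0.17 for Plxna3 (adjusted p = 5.89e-06 and 0.00043). Plxnb1, the receptor of Sema4d, ranged from 6.07 to 14.2 FPKM in LinNegSca1Neg, from 0.0982 to 0.586 in LinNegSca1Pos and from 0.188 to 0.849 in LinPos. Plxnb3, a receptor of Sema5a, ranged from 5.15 to 13.97, from 0.001 to 0.323 and from 0.204 to 0.700 in the same order. LinNegSca1Neg did not overlap the other fractions for either gene, with differences from LinNegSca1Pos of 2.91 ± 0.26 and 3.02 ± 0.31 in size (adjusted p = 4.40e-08 and 3.05e-07). Sema5a itself was highest in the same fraction, at 7.07 to 11.7 FPKM against 2.08 to 3.37 in LinNegSca1Pos and 0.727 to 0.868 in LinPos. Plxnb2, a widely expressed plexin, stood at 18.5, 25.2 and 15.9 FPKM in LinNegSca1Pos, 12.7, 10.3, 8.74 and 7.79 in LinNegSca1Neg and 18.5, 11.4, 12.02 and 11.5 in LinPos. LinNegSca1Pos and LinPos overlapped for Plxnb2, and that call (0.54 ± 0.22, adjusted p = 0.0433) was lost without LinPos replicate 2, 3 or 4 or LinNegSca1Pos replicate 1 or 2 (adjusted p from 0.0674 to 0.214).

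Among the membrane-bound semaphorins, Sema4a and Sema7a, both known from immune cells, were highest in LinPos. Sema4a stood at 35.3, 28.5, 29.8 and 24.9 FPKM in LinPos and at no more than 1.41 in any library of another group (log2 difference from LinNeg 4.38 ± 0.19, adjusted p = 1.53e-12). Sema7a, a lipid-anchored ligand of Plexin C1 and integrins, stood at 57.8, 46.7, 9.63 and 17.98 FPKM in LinPos, 1.71, 9.87 and 1.19 in LinNegSca1Pos and 2.49, 3.29, 1.37 and 1.55 in LinNegSca1Neg. LinNegSca1Pos replicate 2 exceeded LinPos replicate 3, so those groups overlapped. Sema4d, the immune semaphorin that binds Plexin B1, ranged from 6.44 to 17.3 FPKM in LinPos and from 0.392 to 2.26 in the 3 lineage-negative groups, but from 9.85 to 11.8 in Whole. Sema4b and Sema4c were the 2 genes that the fractions did not set apart. Sema4b ranged from 1.78 to 2.08 FPKM in LinPos, from 1.42 to 2.52 in LinNegSca1Pos, from 2.30 to 2.85 in LinNegSca1Neg and from 1.48 to 2.23 in LinNeg, and its log2 difference between LinPos and LinNeg was 0.054 ± 0.141 (adjusted p = 0.786). Sema4c, which binds Plexin B2, stood at 16.6, 16.2, 5.56 and 10.7 FPKM in LinPos, 18.8, 16.5 and 13.0 in LinNegSca1Pos, 27.7, 18.9, 22.5 and 20.3 in LinNegSca1Neg and 20.4, 17.0, 19.4 and 14.2 in LinNeg. Only LinNegSca1Neg against LinPos was called among the 3 fractions (0.90 ± 0.24, adjusted p = 0.00383), and that call was lost with replicates 1 and 2 only (adjusted p = 0.0857). It was not called between LinPos and LinNeg (-0.59 ± 0.24, adjusted p = 0.0503); with the replicate number as a block the adjusted p was 0.0300.

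Slit3, a secreted Robo ligand, and Robo1 were both highest in LinNegSca1Pos of the 3 fractions, and Robo4 was highest in LinPos. Slit3 stood at 34.4, 69.2 and 26.5 FPKM in LinNegSca1Pos, 55.4, 31.4, 38.4 and 36.3 in LinNeg, 11.3, 6.33, 8.27 and 10.8 in LinNegSca1Neg and 3.94, 2.26, 3.45 and 2.01 in LinPos. It differed by 2.04 ± 0.28 between the Sca1 fractions (adjusted p = 7.07e-06), whose libraries did not overlap. Slit1 and Slit2 did not pass the filter.

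Robo1, the broadly expressed Slit receptor, stood at 10.9, 7.54, 9.44 and 8.66 FPKM in LinNeg, 6.20, 6.18 and 4.89 in LinNegSca1Pos, 3.66, 3.81, 4.31 and 3.79 in LinNegSca1Neg and 0.277, 0.337, 0.355 and 0.306 in LinPos. Robo4, the endothelial Robo, stood at 52.1, 57.7, 16.3 and 44.4 FPKM in LinPos, 0.509, 0.552, 0.643 and 0.519 in LinNeg, 2.39, 0.499 and 0.234 in LinNegSca1Pos and 1.32, 0.818, 1.37 and 1.48 in LinNegSca1Neg. No library overlapped between LinPos and LinNeg for either gene. The log2 difference, LinPos minus LinNeg, was -2.93 ± 0.12 for Robo1 and 4.67 ± 0.33 for Robo4 (adjusted p = 6.75e-13 and 6.83e-10). Robo4 had the largest difference among the genes higher in LinPos than in LinNeg.

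Ephrins and Eph receptors divided within each family. Efna1, a ligand of EphA2, stood at 57.7, 64.8, 19.3 and 47.5 FPKM in LinPos and between 2.18 and 5.77 in the lineage-negative groups. Efnb2, the arterial ephrin, stood at 42.5, 49.5, 18.6 and 31.8 FPKM in LinPos and between 2.75 and 7.37 in the lineage-negative groups. LinPos did not overlap those groups for either gene, and the differences from LinNeg were 3.60 ± 0.29 for Efna1 and 2.52 ± 0.25 for Efnb2 (adjusted p = 5.69e-09 and 6.73e-08). Efnb1 was lowest in LinNegSca1Neg of the 3 fractions: 12.7, 10.5, 4.74 and 13.8 FPKM in LinPos, 6.69, 9.77 and 7.72 in LinNegSca1Pos and 2.68, 2.31, 3.80 and 3.40 in LinNegSca1Neg. Efna2, Efna4 and Efna5 were higher in LinNegSca1Pos than in LinPos, and reached no more than 5.46 FPKM there.

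Of the receptors, Ephb2 and Ephb3, which bind B-type ephrins, were highest in LinNegSca1Pos. Ephb3 stood at 8.13, 9.35 and 7.15 FPKM there, 3.07, 2.66, 1.90 and 2.47 in LinNegSca1Neg and 0.335, 0.221, 0.116 and 0.0966 in LinPos. Ephb2 stood at 4.41, 5.29 and 5.77 FPKM, 1.04, 0.817, 1.04 and 0.895, and 0.103, 0.138, 0.156 and 0.102 in the same order. The 3 fractions did not overlap for either gene, and the Sca1 fractions differed by 1.39 ± 0.19 for Ephb3 and 1.66 ± 0.17 for Ephb2 (adjusted p = 7.58e-06 and 1.76e-07). Ephb6, an Eph receptor without kinase activity, was highest in LinNegSca1Neg, at 8.69, 6.56, 5.73 and 5.28 FPKM against 2.59, 2.39 and 2.18 in LinNegSca1Pos and 0.490, 0.339, 0.115 and 0.249 in LinPos.

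Ephb4, the venous partner of ephrin-B2, was at 28.6, 25.6, 6.04 and 10.54 FPKM in LinPos, 7.79, 7.42 and 7.42 in LinNegSca1Pos and 4.56, 4.66, 3.08 and 2.39 in LinNegSca1Neg. LinPos replicate 3 lay below LinNegSca1Pos, and the call between them (-0.90 ± 0.37, adjusted p = 0.0438) was lost without LinPos replicate 1 or 2 or any 1 LinNegSca1Pos library (adjusted p from 0.0804 to 0.152). Its call between the Sca1 fractions (0.90 ± 0.37, adjusted p = 0.0465) was lost without LinNegSca1Neg replicate 3 or 4 or any 1 LinNegSca1Pos library (adjusted p from 0.0892 to 0.119). Epha2, the main receptor of ephrin-A1, stood at 6.01, 5.48, 4.05 and 7.63 FPKM in LinPos, 3.81, 2.96, 4.09 and 4.42 in LinNegSca1Neg and 0.878, 0.485 and 0.219 in LinNegSca1Pos. Its call of LinNegSca1Neg below LinPos (-0.48 ± 0.17, adjusted p = 0.0213) was lost without LinPos replicate 4 or LinNegSca1Neg replicate 2 (adjusted p = 0.0823 and 0.0758). Epha4, a receptor of both ephrin classes, stood at 7.19, 7.42, 1.61 and 5.66 FPKM in LinPos, 4.21, 4.20, 2.13 and 3.07 in LinNegSca1Neg and 1.41, 1.30 and 1.78 in LinNegSca1Pos. Its call between the Sca1 fractions (-0.79 ± 0.31, adjusted p = 0.0389) was lost without any 1 library of them except LinNegSca1Neg replicate 3 (adjusted p from 0.0554 to 0.102).

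The netrins were on the lineage-negative side. Ntn1, the founding netrin, stood at 49.4, 45.6 and 45.0 FPKM in LinNegSca1Pos, 10.3, 8.63, 4.80 and 3.89 in LinNegSca1Neg, 3.50, 3.15, 1.96 and 1.20 in LinPos and 35.9, 40.2, 19.5 and 19.9 in LinNeg. LinNegSca1Pos did not overlap any other group, and it differed from LinNegSca1Neg by 2.67 ± 0.31 (adjusted p = 1.06e-06). Ntn4, a laminin-binding netrin of basement membranes, did not separate the Sca1 fractions: 26.5, 26.3 and 15.2 FPKM in LinNegSca1Pos and 25.3, 22.0, 15.1 and 17.7 in LinNegSca1Neg, against 3.48, 2.59, 3.43 and 2.24 in LinPos. The difference between the Sca1 fractions was 0.15 ± 0.20 (adjusted p = 0.535).

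Ntn5 was highest in LinNegSca1Neg, at 2.72, 3.37, 11.1 and 9.78 FPKM, against no more than 0.0461 in LinNegSca1Pos, 0.103 in LinPos and 0.205 in Whole. It differed from LinNegSca1Pos by 2.74 ± 0.31 in size (adjusted p = 8.05e-07). Within LinNegSca1Neg, Ntn5 in replicates 3 and 4 was 3.43 times its level in replicates 1 and 2, while Plxnb1 and Plxnb3 stood at 0.495 and 0.442 times. Over the same libraries the myofibre marker sum was 3183, 2543, 16271 and 19528 FPKM, so that replicates 3 and 4 stood at 6.25 times replicates 1 and 2. The sums for blood endothelium, tenocytes and Schwann cells stood at 1.47, 1.42 and 1.38 times, and those for mesenchymal progenitors, leukocytes, pericytes and smooth muscle, satellite cells and neurons at 0.873, 0.870, 0.834, 0.793 and 0.584 times. Between the same replicates, Plxnb1 and Plxnb3 stood at 0.312 and 0.526 times in LinPos and at 0.585 and 0.348 times in LinNeg. Ntn5 stood at 1.55 times in LinNeg. The part of these shifts in the differences was not tested.

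Of the netrin receptors, Unc5b, an endothelial repulsive receptor, stood at 11.1, 10.8, 1.85 and 6.53 FPKM in LinPos, 2.61, 3.27 and 1.85 in LinNegSca1Pos and 2.50, 2.81, 2.66 and 1.97 in LinNegSca1Neg. LinPos replicate 3 was inside the range of the other fractions, and the call against LinNegSca1Pos (-1.08 ± 0.34, adjusted p = 0.0111) was lost without LinNegSca1Pos replicate 3 (adjusted p = 0.0562) and with LinPos replicates 3 and 4 only (adjusted p = 0.286). Dcc, the attractive netrin receptor, averaged no more than 0.0353 FPKM in any group. Neo1, its homologue neogenin, averaged 21.1 ± 3.22 FPKM in LinNeg and 3.13 ± 0.866 in LinPos (SD, n = 4).

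LinPos replicate 3 stood apart. Its endothelial marker sum was 0.401 times the mean of the other 3 LinPos libraries and its leukocyte marker sum 1.23 times. The pericyte and smooth muscle sum stood at 2.49 times, the myofibre sum at 2.58, and the tenocyte and mesenchymal progenitor sums at 0.620 and 0.625. Not every marker followed its sum. Acta2, Myh11 and Cnn1 were highest in replicate 3 and Cspg4 lay within the range of the others. Rgs5 (27.3 FPKM against 56.1 to 74.4) and Kcnj8 (1.75 against 2.65 to 4.46) were lowest. Ly6a fell to 396 FPKM against 657 to 682 and Cd34 to 84.9 against 133 to 181. Pdgfra, Clec3b and Pi16 lay within the range of the others, and Dpt was highest, at 46.2 FPKM against 25.4 to 42.0. Of the 18 genes highest in LinPos, 15 had their lowest LinPos value in replicate 3, from 0.186 times the others for Sema3g to 0.649 times for Plxnd1. Sema7a stood at 0.236 times, Robo4 at 0.316 times and Nrp1 at 0.497 times. Sema4a, Plxnc1 and Sema4d did not fall: they stood at 1.01, 1.51 and 1.69 times. How many of all genes highest in LinPos were also lowest in replicate 3 was not counted, so 15 of 18 has no background share. Some ratios are not particular to replicate 3. Sema3g was nearly as low in replicate 4 (3.78 FPKM against 3.61), and Sema7a and Ephb4 were also lower there than in replicates 1 and 2. Nrp1, in contrast, had its highest LinPos value in replicate 4. The part of the marker shift in these values was not tested. Without replicate 3, LinPos against LinNeg called 24 genes higher and 27 lower, with 48.7% of all genes called (3401 higher, 3388 lower).

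**Figure D3:**
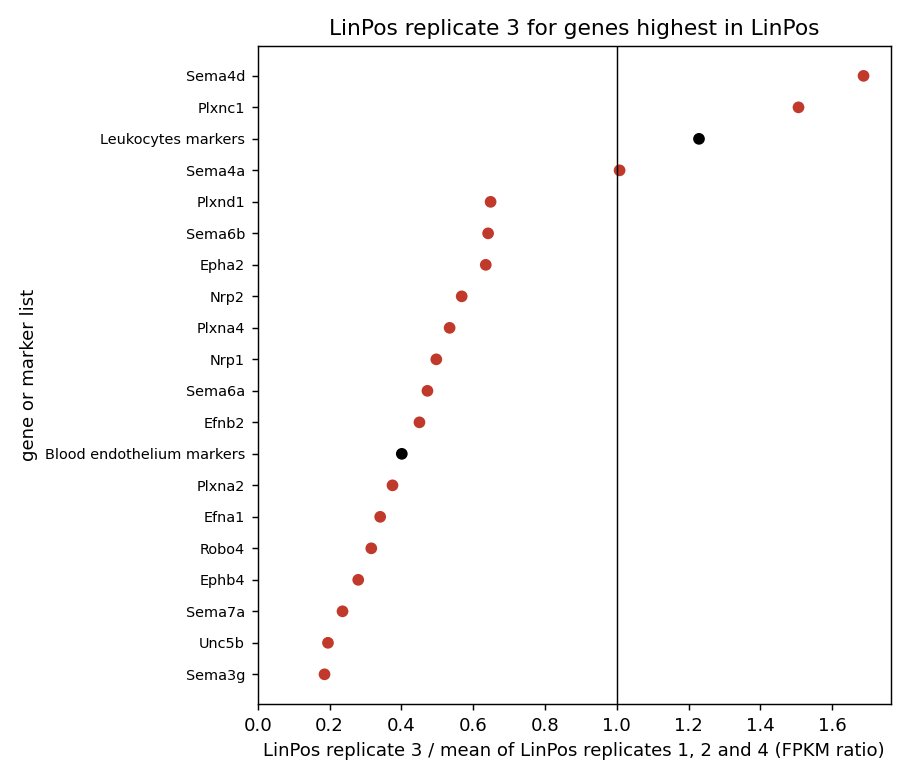
The x axis is the FPKM ratio of LinPos replicate 3 to the mean of LinPos replicates 1, 2 and 4 (linear, from 0; the line is at 1), for the 18 genes highest in LinPos (red) and 2 marker sums (black). The 15 genes left of the line run from 0.186 to 0.649, and Sema4a, Plxnc1 and Sema4d lie at or right of it. The endothelial sum is at 0.401 and the leukocyte sum at 1.23. Sums not drawn stood at 0.620 (tenocytes), 0.625 (mesenchymal progenitors), 0.933 (satellite cells) and 1.07 (Schwann cells). Those for neurons, for pericytes and smooth muscle and for myofibres stood at 1.36, 2.49 and 2.58.

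Differences between sorted and unsorted samples extended to most genes of the transcriptome, and the guidance genes are given against that shift. The median log2 difference of all genes from Whole was 0.45 in LinPos and 0.43 in LinNeg. LinPos was above Whole for 28 of the 55 genes and below for 6 (71.8% of all genes called, 48.8% higher and 22.9% lower), with no overlap for 32 (69.0%). LinNeg was above Whole for 34 and below for 6 (69.3%, 47.5% higher and 21.8% lower), with no overlap for 43 (67.6%). The median over the 55 was 0.43 and 0.76. Scaling by median-of-ratios brought the medians of all genes to 0.04 and -0.01; LinPos was then above Whole for 23 of the 55 and below for 10, and LinNeg for 27 and 9. Over all genes the split between LinPos and Whole went from 6855 higher and 3222 lower to 5159 and 4819, and between LinNeg and Whole from 6676 and 3062 to 4524 and 4957.

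Sema6c, a transmembrane semaphorin, and Unc5a were above both LinPos and LinNeg in Whole (17.1% of all genes were). Sema6c stood at 19.4, 24.3, 19.8 and 25.3 FPKM in Whole, 0.455, 0.447, 0.0299 and 0.0867 in LinPos, 4.42, 3.37, 2.56 and 1.46 in LinNeg, 5.10, 5.82 and 3.42 in LinNegSca1Pos and 7.38, 5.22, 3.58 and 3.69 in LinNegSca1Neg. No sorted library reached the Whole range, and LinPos was 4.22 ± 0.24 lower than Whole on the log2 scale (adjusted p = 2.11e-11). Unc5a ranged from 1.80 to 2.94 FPKM in Whole and reached 1.20 elsewhere; its locus overlaps Hk3, which reached 17.9 FPKM, and no source used here says whether counting used strand. Whole carries the myofibre markers given above, and their part in these differences was not tested. In the other direction, 12 genes were lower in Whole than in both LinPos and LinNeg (33.7% of all genes were), and 41 were neither above nor below both (49.1%).

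LinNeg is the parent gate of both Sca1 fractions, and 35 of the 55 genes had a LinNeg mean between theirs (62.3% of all genes). For Sema3c, Robo1, Ntn4 and Sema3e every LinNeg library was above every library of both fractions (0.676% of all genes showed this), and 0 genes were below both (0.648%). Sema3e ranged from 3.34 to 4.10 FPKM in LinNeg, from 0.809 to 1.99 in LinNegSca1Pos and from 1.74 to 1.95 in LinNegSca1Neg.

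**Figure D4:**
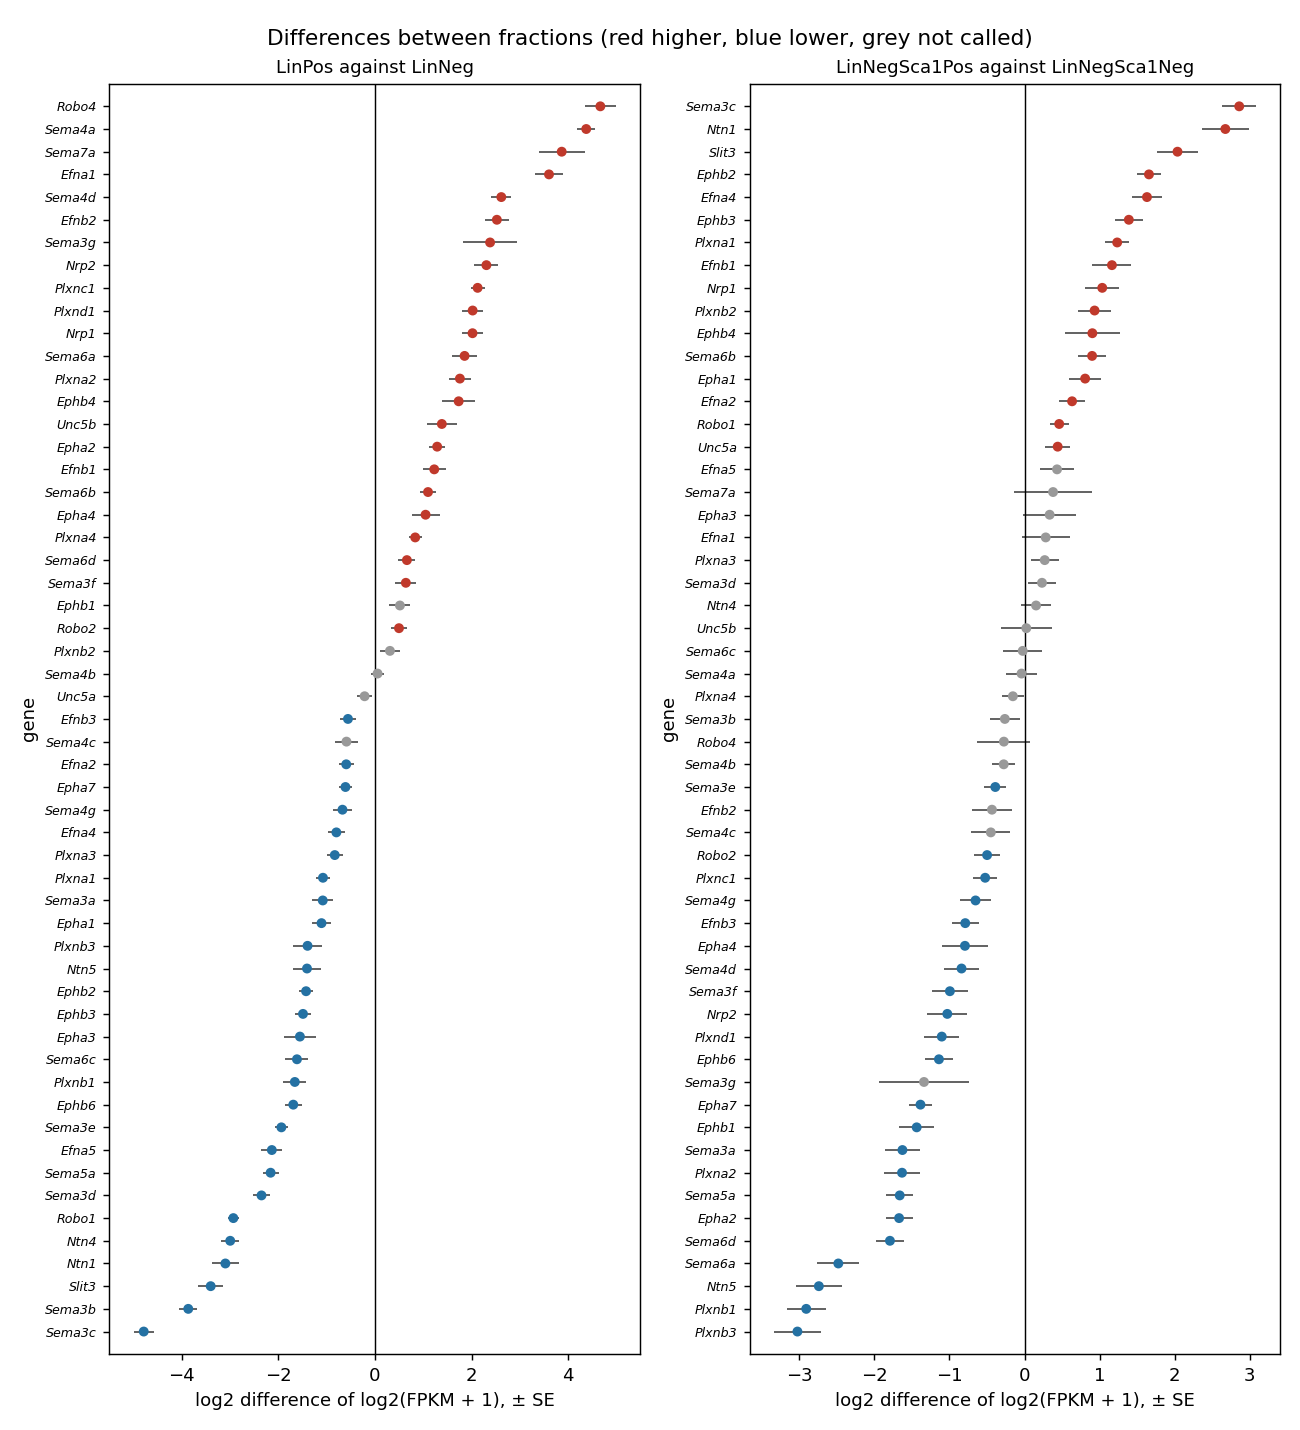
Points are log2 differences of log2(FPKM + 1) with bars of 1 SE for the 55 tested genes, for LinPos minus LinNeg (left) and LinNegSca1Pos minus LinNegSca1Neg (right); red and blue mark genes called higher and lower, grey those not called. On the left Robo4 (4.67) and Sema4a (4.38) lie furthest right and Sema3c (-4.79) furthest left; on the right Sema3c (2.86) and Ntn1 (2.67) lie opposite Plxnb3 (-3.02) and Plxnb1 (-2.91).

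Of 21 listed co-receptors and further ligands that work beside these genes, 15 were tested. In LinPos against LinNeg 3 were higher and 10 lower, 86.7% called against 51.1% of all genes (25.3% higher, 25.8% lower). In LinNegSca1Pos against LinNegSca1Neg 3 were higher and 8 lower, 73.3% called against 54.5% (22.4% higher, 32.1% lower). The median log2 difference was -1.01 in the first comparison and -0.79 in the second. In LinNegSca1Pos against LinPos 7 were higher and 4 lower, 73.3% called against 59.9% (29.0% higher, 30.9% lower). Rgma, a neogenin ligand, averaged 23.0 ± 1.05 FPKM (SD, n = 3) in LinNegSca1Pos and 0.972 ± 0.281 (n = 4) in LinPos. Flrt2, an Unc5 ligand, averaged 17.4 ± 2.56 and 2.80 ± 0.640 in the same groups. L1cam (0.176 ± 0.0787 and 8.34 ± 0.875) and Itga1 (0.908 ± 0.300 and 26.8 ± 14.5) went the other way between these groups. Of 39 listed signalling effectors, 36 were tested, with 11 higher and 13 lower in LinPos than in LinNeg, 66.7% called against 51.1% of all genes, and a median log2 difference of 0.12. Arhgef15, an endothelial exchange factor downstream of Eph receptors, averaged 36.2 ± 17.0 FPKM in LinPos and 0.594 ± 0.212 in LinNeg, and Fes, a kinase downstream of plexins, 31.8 ± 8.75 and 2.14 ± 0.435. Between the Sca1 fractions 11 effectors were higher in LinNegSca1Pos and 9 lower, 55.6% called, near the 54.5% of all genes. The share was also 55.6% against 54.5% in LinNegSca1Neg against LinPos, and 75% against 59.9% in LinNegSca1Pos against LinPos. Against Whole it was 69.4% for LinPos (71.8% of all genes) and 69.4% for LinNeg (69.3%). Chn1, a Rac regulator downstream of EphA4, was lower in LinNegSca1Pos than in LinNegSca1Neg by 2.48 ± 0.23 in size (adjusted p = 6.93e-08).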

How the data were processed

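Poly-A RNA libraries (TruSeq stranded mRNA) were measured in 19 samples of 5 groups. The authors deposited 1 table of FPKM per gene and library; the submitters' processing notes name bcl2fastq, TopHat2, Bowtie2 and Cufflinks and the build mm10, without versions or roles. No source used here gives the annotation, filters or strand setting. Of 23846 rows with a symbol, 311 held only status words and 14 some; 23521 were used. The table has 4 further columns, headed tdTomato (a red fluorescent protein), that match no sample label and were not used. The table's unit was read from its column names.

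From these values log2(FPKM + 1) was tested with limma 3.58.1 in R 4.3.3 (variance trend, all 19 libraries in 1 fit, two-sided, at least 1 FPKM in 3 libraries, Benjamini-Hochberg over 14043 genes), after tests on simulated data. No count model applies to such values. Genes, lists, markers and comparisons were chosen with earlier results of these data known. Values in every library are given for genes with a group mean of at least 5 FPKM that are among the 4 highest of their family; others were named after their values were seen. The promoters shown follow a rule that does not use the motifs; it was set after motif counts had been seen and replaced a hand-picked set. Alternatives were pseudocounts of 0.1 and 5, no filter, a 5 FPKM filter, median-of-ratios and quantile scaling, fits of the compared groups only or without a variance trend, the replicate block, replicates 1 and 2 or 3 and 4 only, and leaving out each library. The cut to replicates 1 and 2 or 3 and 4 applied to LinPos, LinNeg and LinNegSca1Neg, and every Whole and LinNegSca1Pos library stayed in.

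Same-numbered libraries deviated together in LinPos and LinNeg (r from 0.441 to 0.704) and in LinNegSca1Neg and LinPos (r from 0.360 to 0.675). In the other comparisons they did not (r from -0.347 to 0.181). The labels do not name pairs, and whether same-numbered libraries are pairs was not tested. The reported fit did not use the replicate number, which entered as a block in an alternative only. Loci of 13 of the 68 genes overlap another gene in the table.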

Additional observations from a re-analysis of the deposited data

Results flagged for a closer look

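In 7 of 112 groups of 4 libraries examined, 1 library lay far from the other 3 relative to the group's range; chance gives about 1 in 20 groups. Ephb6 was at 1.85 FPKM in LinNeg replicate 4 against 3.57 to 3.98 in the other LinNeg libraries. Robo1 was at 0.524 FPKM in Whole replicate 4 against 0.616 to 0.628. Sema3b was at 0.506 FPKM in LinPos replicate 4 against 1.12 to 1.22. Sema3c was at 202 FPKM in LinNeg replicate 3 against 154 to 158. Sema4c was at 2.25 FPKM in Whole replicate 2 against 1.69 to 1.72. Nrp2 was at 14.9 FPKM in LinPos replicate 3 against 25.1 to 27.1, in the library whose endothelial marker sum was low. Plxnb2 was at 18.5 FPKM in LinPos replicate 1 against 11.4 to 12.02.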

How the results depend on the processing

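Of 172 differences of named genes, 120 kept direction and side of the threshold under every alternative run. Leaving out 1 library gave 20 to 24 genes higher and 27 to 28 lower in LinPos against LinNeg (23 and 27 with all libraries), 15 to 16 and 19 to 21 in LinNegSca1Pos against LinNegSca1Neg (16 and 22), 21 to 23 and 20 to 24 in LinNegSca1Pos against LinPos (22 and 23), 24 to 27 and 16 to 20 in LinNegSca1Neg against LinPos (25 and 19), 25 to 28 and 5 in LinPos against Whole (28 and 6), and 32 to 36 and 6 to 7 in LinNeg against Whole (34 and 6).

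The filter of 5 FPKM left 36 of the genes to test, and with fewer tested the counts fell to 15 lower in LinPos against LinNeg, 10 higher and 13 lower in LinNegSca1Pos against LinNegSca1Neg, 14 higher in LinNegSca1Pos against LinPos and 15 higher in LinNegSca1Neg against LinPos. Genes lower in LinPos than in Whole numbered 10 with median-of-ratios and 11 with quantile scaling, and 11 were lower in LinNeg than in Whole with quantile scaling. The counts that moved by over 1.5 times with no change of the filter were all against Whole.

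A further group of differences changed sign, and none of them was called on the changed side. With median-of-ratios scaling Sema4a (0.0011) and Sema6c (0.080) turned between the Sca1 fractions, Slit3 (-0.16) and Sema3d (-0.22) in LinPos against Whole, and Efnb2 (-0.17), Nrp2 (-0.50) and Plxnd1 (-0.31) in LinNeg against Whole. With quantile scaling Robo4 (0.028), Sema4a (0.24) and Sema6c (0.15) turned between the Sca1 fractions, Slit3 (-0.30) and Sema3d (-0.36) in LinPos against Whole, and Epha2 (-0.13, adjusted p = 0.527, called higher in the reported fit), Efnb2 (-0.15), Unc5b (-0.11), Nrp2 (-0.50) and Plxnd1 (-0.14) in LinNeg against Whole. The runs on part of the replicates cut LinPos, LinNeg and LinNegSca1Neg only and kept every Whole and LinNegSca1Pos library. With replicates 1 and 2 only of the cut groups, Ntn4 (-0.10), Unc5b (-0.050) and Sema4a (0.016) turned between the Sca1 fractions, Sema4c (-0.039) in LinNegSca1Pos against LinPos, Ephb6 (0.058) and Ntn1 (0.17) in LinPos against Whole and Ephb4 (0.23) in LinNeg against Whole. With replicates 3 and 4 only of the cut groups, Sema6c (0.30) turned between the Sca1 fractions, Ntn5 (0.021) in LinNegSca1Pos against LinPos and Nrp2 (-0.046) in LinNeg against Whole. Leaving out 1 library spanned 0 for Robo4 (-0.71 to 0.015), Unc5b (-0.11 to 0.18), Sema4a (-0.33 to 0.14), Sema6c (-0.16 to 0.16) and Sema7a (-0.34 to 0.82) between the Sca1 fractions, for Sema4b (-0.0083 to 0.118) in LinPos against LinNeg, and for Ephb4 (-0.17 to 0.064) and Nrp2 (-0.046 to 0.14) in LinNeg against Whole. The causes were not tested.

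The replicate block changed 6 of the 172 differences. Beside Sema4c, given above, it called Sema3g between the Sca1 fractions (adjusted p = 0.00394) and in LinNeg against Whole (0.0295) and Plxnb2 in LinNegSca1Neg against LinPos (0.0489), lost Robo1 in LinPos against Whole (0.0539) and turned Ntn5 in LinNegSca1Pos against LinPos (0.018, adjusted p = 0.964). With the block, 24 genes were higher and 28 lower in LinPos against LinNeg. The calls of Sema3f in LinPos against LinNeg, of Epha2 and Epha4 in LinNeg against Whole, of Sema3g and Robo1 in LinPos against Whole and of Ephb4, Plxnb2 and Epha4 among the 3 fractions were each lost under several alternatives. Read depth is unknown, so no counting error can be given for low values.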
